A study of Mus musculus with 6 samples.

Results

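Glycolysis and the response to low oxygen were followed in white adipose tissue through 37 listed genes, 23 enzymes and transporters of glycolysis and 14 regulators and targets of the hypoxia response. Each was looked up by its symbol or an older alias, and 34 of the 37 had a probe set assigned to that gene alone, 20 in the first group and 14 in the second, among 18193 genes measured in all. Gpi1 and Eno1 had no such probe set here, and Gapdh was read only by control probe sets and by probe sets shared with pseudogenes. The tissue came from 3 mice labelled KSR2-/- and 3 labelled WT, all C57Bl6 females aged 6 months, with 1 Affymetrix array per mouse. KSR2 (kinase suppressor of Ras 2) helps assemble Raf, MEK and ERK into a signalling complex, and the series compared the 2 genotypes. The sources used here name neither the fat depot nor the deleted stretch of the gene.

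Glycolysis splits glucose into pyruvate in the cytosol. In adipocytes it also supplies glycerol 3-phosphate and acetyl-CoA for fat synthesis, and much of the product leaves white fat as lactate. Cells short of oxygen lean on this pathway: HIF-1α and HIF-2α, which are hydroxylated by the EGLN prolyl hydroxylases and destroyed through VHL when oxygen is present, accumulate in hypoxia, pair with ARNT and switch on glycolytic enzymes, glucose transporters, angiogenic factors and mitophagy genes. HIF-α subunits are controlled largely at the protein level, so transcript levels of the regulators and of the targets are separate measurements. Expanding fat depots are a setting in which hypoxia has been described.

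Values are log2 of the deposited intensities, which the submitters describe as RMA values, differences are KSR2-/- minus WT, and the arrays are called knockouts 1 to 3 and wild types 1 to 3. The Ksr2 probe set read 4.47, 4.28 and 4.26 in knockouts 1 to 3, against 4.74, 4.04 and 4.47 in wild types 1 to 3, a low signal in both genotypes. Whether the probes lie in the deleted stretch is not known here, so this does not check the labels. Knockout 3 and wild type 3 carry lower animal numbers than the other mice, and these 2 lower-numbered mice are also set apart from the 4 higher-numbered ones. Wild type 3 stood apart in the Gapdh control probe sets, whose 3′ signal exceeded the 5′ signal by 4.18 log2 there and by 0.07 to 1.46 on the other arrays, a sign of RNA quality. It also had the highest mean of 9 skeletal muscle markers, at 7.17 beside 4.21 to 5.32 on the other arrays, and of 7 mammary epithelium markers, at 7.06 beside 4.55 to 6.11. Adipocyte genes were bright on every array: Fabp4, the fatty acid carrier, read 13.66 to 13.81 in knockouts and 13.66 to 13.90 in wild types. Their directions differed, since Adipoq, the hormone adiponectin, lay below wild type in every knockout (12.70 to 13.40, against 13.46 to 13.58 in wild types) and Lep, the hormone leptin, above it (11.80 to 12.46, against 9.42 to 11.76 in wild types). In bulk tissue, fewer cells of a type and less RNA per cell cannot be told apart.

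No member passed the test, which was limma with Benjamini-Hochberg adjustment over all genes at a threshold of 0.05. Of all genes 0.0055% were called, which is 1 gene. Before adjustment, 8 of 34 members had a limma p under 0.05, where the share over all genes was 12.1%. The same 8 were the members without overlap between the genotypes, where the share over all genes was 16.3%. Pfkfb4, Eno2, Hif1a and Ankrd37 lay above wild type in every knockout. Slc2a3, Egln3, Vegfa and Bnip3 lay below it. The share over all genes was 6.71% higher and 5.38% lower at the unadjusted p, and 7.72% above and 8.56% below without overlap. In each of the 8, knockout 3 was the knockout nearest to the wild-type mean, though in Slc2a3 it was level with knockout 2 (6.42 in both). Without knockout 3, limma called 2 members, Pfkfb4 and Egln3, where 4.49% of all genes were called. Known hypoxia-inducible genes thus lay in both directions. The median differences of the 2 groups were near that of all genes (−0.04 log2), at 0.10 for the 20 glycolytic enzymes and transporters and −0.04 for the 14 hypoxia genes. Taken without sign, the median differences were 0.29 and 0.42, beside 0.19 over all genes, which was not tested.

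**Figure D1:**
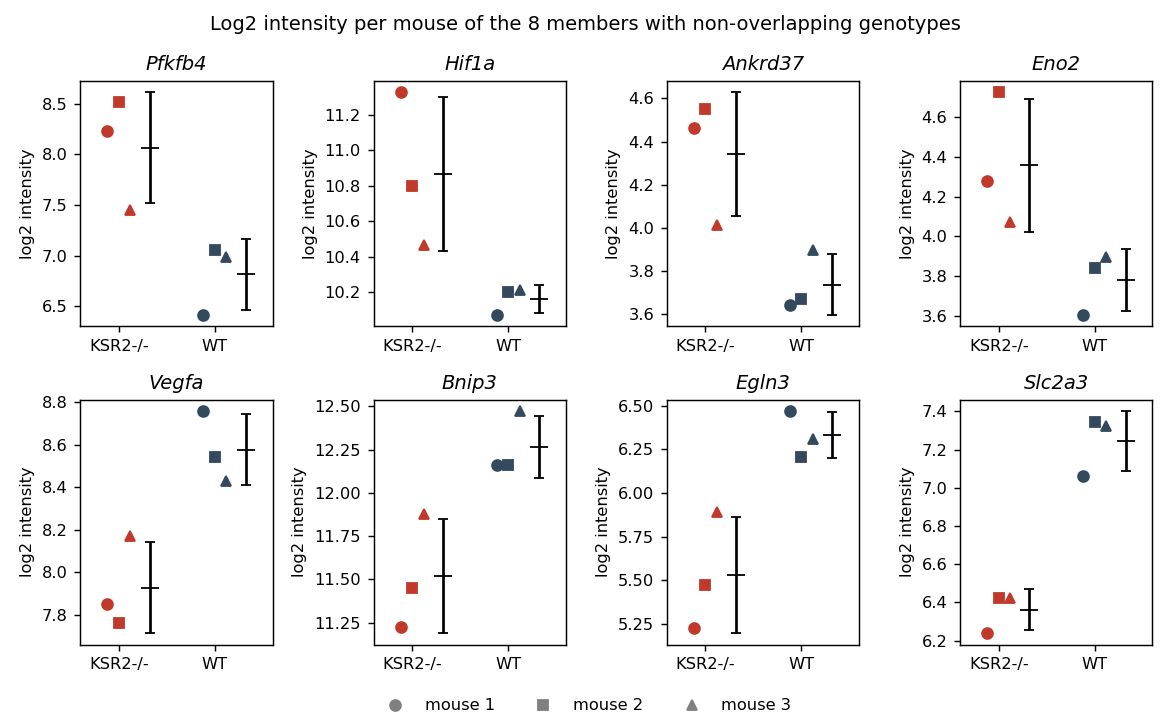
Log2 intensity (vertical axes, not starting at 0) of the 8 members without overlap between the genotypes, 1 point per mouse, KSR2-/- left and WT right; the bar beside each group is its mean with the SD of 3 mice. Marker shapes number the mice within a genotype and pair nothing. In every panel knockout 3 (triangle) is the knockout nearest to the wild-type mean, though in Slc2a3 it is level with knockout 2 (6.42 in both).

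Glucose enters cells through facilitative transporters and is trapped by hexokinase. Slc2a3, which encodes the high-affinity glucose transporter GLUT3, read 6.24, 6.42 and 6.42 in knockouts, against 7.06, 7.35 and 7.33 in wild types. All knockouts lay below all wild types, and the means were 6.36 ± 0.11 and 7.24 ± 0.16 (SD, n = 3 each). The difference of −0.88 (SE 0.16), a 1.84-fold lower level, had the smallest p of all members but did not pass (limma adjusted p = 0.193). It was as large in the 2 lower-numbered mice (−0.90) as in the 4 higher-numbered mice (−0.87), which held for none of the other 7. A second, dimmer probe set of the gene differed by −0.80 with overlapping groups, and the remaining 2 read close to 3 on all arrays.

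Slc2a1, the basal glucose transporter GLUT1, read 7.33, 8.38 and 7.32 in knockouts, against 6.10, 7.36 and 7.72 in wild types. Wild type 1 was low, wild type 3 lay among the knockouts, and the difference of 0.62 (SE 0.47, limma adjusted p = 0.688) had a 95% interval of −0.50 to 1.74. It was 1.13 in the 4 higher-numbered mice and −0.40 in the 2 lower-numbered mice. A dimmer probe set of Slc2a1 differed by 0.65 with overlapping groups. The dimmest differed by 0.55 without overlap, at 5.63, 5.74 and 5.41 in knockouts, against 4.53, 5.25 and 5.34 in wild types. The sign in the 2 lower-numbered mice thus depended on the probe set. Hexokinase 2, the insulin-responsive form encoded by Hk2, read 8.91, 9.35 and 9.26 in knockouts, against 9.00, 10.24 and 9.65 in wild types. That is a difference of −0.45 (SE 0.32, limma adjusted p = 0.657) with overlapping groups, which was −0.15 without wild type 2 and −0.77 without wild type 1. Hk1, the widely expressed form, differed by 0.33 (SE 0.20), with knockouts at 7.94 to 8.07 and wild type 3 inside that range at 8.05.

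Phosphofructokinase commits glucose to glycolysis and is driven by fructose 2,6-bisphosphate, which the bifunctional PFKFB enzymes make and degrade. Pfkfb4 had the largest difference of all members. It read 8.23, 8.51 and 7.45 in knockouts, against 6.41, 7.05 and 6.98 in wild types. Every knockout exceeded every wild type, with knockouts 1 and 2 well above and knockout 3 by a small margin. The means were 8.07 ± 0.55 and 6.82 ± 0.35 (SD, n = 3 each), a 2.38-fold higher level (1.25 log2, SE 0.31, limma adjusted p = 0.248). The difference was 1.64 in the 4 higher-numbered mice and 0.47 in the 2 lower-numbered mice, and 1.56 without knockout 3 (limma adjusted p = 0.0280).

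Pfkfb3, the PFKFB form with the highest kinase activity, read 9.44, 9.73 and 9.76 in knockouts, against 8.87, 9.85 and 9.45 in wild types. These groups overlapped (0.25, SE 0.27, 95% interval −0.37 to 0.88), and a dimmer probe set of Pfkfb3 differed by −0.50. The phosphofructokinase subunits themselves gave no common direction. The muscle form Pfkm differed by −0.44 (SE 0.23), the platelet form Pfkp by 0.16 (SE 0.40) and the liver form Pfkl by −0.02 (SE 0.15). For Pfkl, whose arrays lay between 8.85 and 9.08, the 95% interval was −0.37 to 0.33, and the sign changed in some of the alternative fits.

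The later steps of the pathway, from aldolase to pyruvate kinase, yields ATP and NADH. Aldoa, the main aldolase outside liver and brain, read 11.75, 12.10 and 12.32 in knockouts, against 11.77, 12.37 and 12.03 in wild types, with a 95% interval of −0.54 to 0.53 for the difference. Triose phosphate isomerase, Tpi1, differed by 0.47 (SE 0.24) and pyruvate kinase, Pkm, by 0.37 (SE 0.20), each with overlapping groups and with a limma adjusted p of 0.521 and 0.530. Both lay higher in knockouts in each animal number series, by 0.50 and 0.39 for Tpi1 and by 0.31 and 0.50 for Pkm in the 4 higher-numbered and the 2 lower-numbered mice. Pgk1 and Pgam1, the phosphoglycerate kinase and mutase, differed by 0.07 (SE 0.20) and 0.15 (SE 0.19). Several of these genes have many processed pseudogenes, and probe sets of abundant glycolytic transcripts can share sequence with them.

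Eno2, the neuronal enolase and a known hypoxia-inducible gene, was the remaining glycolytic member without overlap. It read 4.28, 4.73 and 4.07 in knockouts, against 3.61, 3.84 and 3.90 in wild types. The signal was dim, at percentile 28.7 of gene means, and the difference of 0.58 (SE 0.21, limma adjusted p = 0.353) was 0.78 in the 4 higher-numbered mice and 0.17 in the 2 lower-numbered mice. Aldoc, the brain-type aldolase, varied most among wild types, at 5.23, 4.44 and 6.82, with knockouts at 5.68, 5.36 and 5.07. The high array was wild type 3, and without it the difference was 0.54 rather than −0.12.

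Lactate dehydrogenase A, Ldha, reduces pyruvate to lactate. It read 11.56, 11.65 and 11.78 in knockouts, against 11.86, 12.20 and 11.69 in wild types, a difference of −0.25 (SE 0.18, limma adjusted p = 0.670) with overlapping groups. Ldhb, the heart form that favours pyruvate, had 8.08, 8.74 and 9.82 in knockouts, against 8.79, 10.01 and 10.07 in wild types. The 2 lowest values were those of knockouts 1 and 2, and the difference of −0.75 came with an SE of 0.51. Of the monocarboxylate carriers that move lactate across the membrane, Slc16a1 differed by 0.08 (SE 0.30). Slc16a3 stayed at 3.23 to 3.55 on all arrays, at percentile 19.1 of gene means.

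Gapdh lies outside the single-gene rule and is given as a description without a test. Its bright probe set, shared with 4 other annotated genes or pseudogenes, read 12.20, 11.94 and 12.45 in knockouts, against 12.65, 12.28 and 11.56 in wild types. Wild type 3 was the lowest array there and in the 3′ control probe set (11.79 to 12.19 in knockouts, and 12.28, 12.06 and 11.37 in wild types). Differences between the genotypes were 0.03 for the shared probe set and 0.08 for the 3′ one. They reached 0.23 for the middle one and 0.82 for the 5′ one, where wild type 3 was at 7.19.

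**Figure D2:**
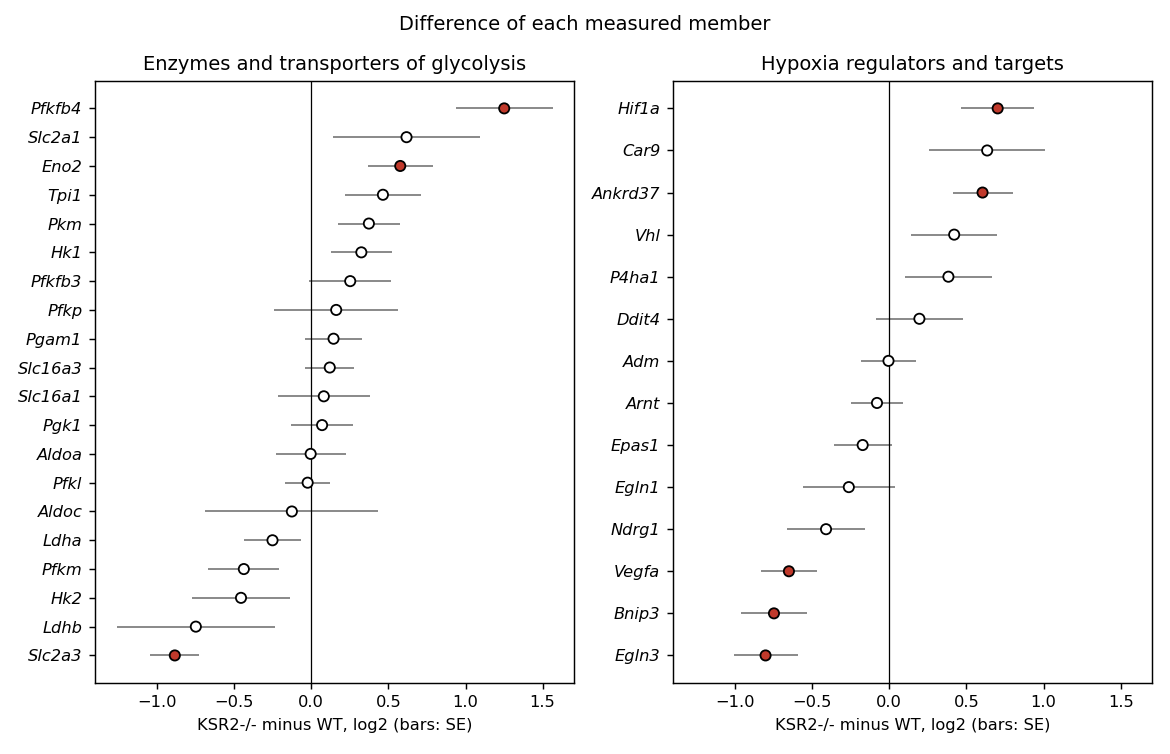
Difference of each of the 34 measured members, KSR2-/- minus WT in log2 units with the limma standard error as a bar, in 2 panels ordered by size; filled points have an unadjusted limma p under 0.05 and none passed after adjustment. Glycolytic members run from −0.88 (Slc2a3) to 1.25 (Pfkfb4) and hypoxia members from −0.80 (Egln3) to 0.70 (Hif1a).

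Among the hypoxia regulators, the genotypes separated without overlap in Hif1a and Egln3. Hif1a read 11.33, 10.80 and 10.47 in knockouts, against 10.07, 10.20 and 10.21 in wild types. The wild types lay close together and every knockout was above them, with means of 10.86 ± 0.43 and 10.16 ± 0.08 (SD, n = 3 each). The 1.63-fold higher level (0.70 log2, SE 0.24) did not pass (limma adjusted p = 0.314), and it was 0.93 in the 4 higher-numbered mice and 0.26 in the 2 lower-numbered mice. Another Hif1a probe set differed by 0.58 and a dimmer one by 0.71, both with overlapping groups. The dimmest, with a mean of 3.35, differed by −0.24.

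Egln3 encodes PHD3, a prolyl hydroxylase that marks HIF-α for destruction and is itself induced by HIF. It read 5.23, 5.47 and 5.89 in knockouts, against 6.47, 6.21 and 6.31 in wild types. All knockouts were below all wild types, a 1.74-fold lower level (−0.80 log2, SE 0.21, limma adjusted p = 0.248). The second Egln3 probe set also separated the genotypes, at 4.78, 4.93 and 5.50 in knockouts against 6.23, 7.05 and 6.85 in wild types. Without knockout 3, Egln3 differed by −0.98 (limma adjusted p = 0.0429). Egln1, the main oxygen sensor PHD2, differed by −0.26 (SE 0.30), with overlapping groups.

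The remaining regulators overlapped. Epas1, which encodes HIF-2α, read 11.09, 11.14 and 11.57 in knockouts, against 11.32, 11.59 and 11.41 in wild types (−0.17, SE 0.19, 95% interval −0.61 to 0.27). Arnt, the shared partner of both HIF-α proteins, differed by −0.08 (95% interval −0.47 to 0.31). Vhl, the ubiquitin ligase subunit that recognises hydroxylated HIF-α, differed by 0.42 (SE 0.28), with 0.70 in the 4 higher-numbered mice and −0.13 in the 2 lower-numbered mice.

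Known targets of hypoxia did not share a direction. Bnip3, a mitochondrial protein that triggers mitophagy and a classic HIF target, read 11.23, 11.45 and 11.88 in knockouts, against 12.16, 12.16 and 12.47 in wild types. Every knockout lay below every wild type, with means of 11.52 ± 0.33 and 12.27 ± 0.18 (SD, n = 3 each), a 1.68-fold lower level (−0.75 log2, SE 0.21, limma adjusted p = 0.275). The difference was −0.82 in the 4 higher-numbered mice and −0.60 in the 2 lower-numbered mice.

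Vegfa, the principal angiogenic growth factor of hypoxic tissue, read 7.85, 7.76 and 8.17 in knockouts, against 8.76, 8.54 and 8.43 in wild types. The groups did not overlap, and the level was 1.57-fold lower (−0.65 log2, SE 0.18, limma adjusted p = 0.267). Its second probe set differed by −0.57 with overlapping groups. As values beside this, the mean of 9 endothelial markers was 6.93 to 7.54 in knockouts and 6.92 to 7.42 in wild types. Of the 9 markers 0 separated the genotypes, where the share over all genes was 16.3%.

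Ankrd37, an ankyrin repeat gene known as a direct HIF-1 target, went the other way. It read 4.46, 4.55 and 4.01 in knockouts, against 3.64, 3.67 and 3.90 in wild types, a dim signal at percentile 28.3 of gene means. The groups did not overlap, but knockout 3 and wild type 3 were only 0.12 apart, and the difference of 0.60 (SE 0.19, limma adjusted p = 0.307) was 0.85 in the 4 higher-numbered mice.

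The other targets overlapped between genotypes. Car9, the carbonic anhydrase used as a marker of hypoxia, read 5.57, 5.81 and 4.41 in knockouts, against 4.72, 4.31 and 4.86 in wild types. Knockouts 1 and 2 were high and knockout 3 was not, so that the difference was 1.18 in the 4 higher-numbered mice and −0.45 in the 2 lower-numbered mice. P4ha1, a collagen prolyl hydroxylase, differed by 0.38 (SE 0.28), and Ddit4, the mTORC1 inhibitor REDD1, by 0.20 (SE 0.28). Ndrg1, a stress-induced growth regulator, differed by −0.41 (SE 0.25), and the vasodilator peptide gene Adm by less than 0.01, with a 95% interval of −0.42 to 0.41.

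Promoter windows were searched for the letters HIF is known to bind, in targets that lay on either side of wild type. HIF recognises a hypoxia response element with the core ACGTG or GCGTG. The 250 bases before a RefSeq transcript start on GRCm38.p6 are shown for 2 known HIF targets that were higher (Ankrd37, Pfkfb4) and 2 that were lower (Bnip3, Egln3), chosen because their windows hold the core. They are written 5′ to 3′ on the gene's strand, with the core on either strand in capitals (CACGT and CACGC are the reverse complements, and overlapping matches run together).
Ankrd37, chr8:45999851-46000100, minus strand: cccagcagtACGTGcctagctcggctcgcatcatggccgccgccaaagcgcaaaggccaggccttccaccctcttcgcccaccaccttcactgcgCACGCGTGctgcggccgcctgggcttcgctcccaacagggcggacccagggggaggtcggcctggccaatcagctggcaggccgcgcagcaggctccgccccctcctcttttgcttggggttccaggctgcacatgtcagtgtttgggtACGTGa
Pfkfb4, chr9:108991652-108991901, plus strand: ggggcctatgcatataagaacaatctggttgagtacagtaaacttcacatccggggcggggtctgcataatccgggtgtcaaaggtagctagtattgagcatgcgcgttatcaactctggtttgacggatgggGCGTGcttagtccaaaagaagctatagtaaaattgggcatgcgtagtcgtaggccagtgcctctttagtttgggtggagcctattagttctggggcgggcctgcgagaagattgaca
Bnip3, chr7:138909507-138909756, minus strand: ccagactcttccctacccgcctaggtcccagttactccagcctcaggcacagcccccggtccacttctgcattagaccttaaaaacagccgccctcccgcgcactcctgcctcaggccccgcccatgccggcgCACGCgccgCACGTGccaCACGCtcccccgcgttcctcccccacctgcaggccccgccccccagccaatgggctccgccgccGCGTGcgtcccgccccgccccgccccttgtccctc
Egln3, chr12:54203875-54204124, minus strand: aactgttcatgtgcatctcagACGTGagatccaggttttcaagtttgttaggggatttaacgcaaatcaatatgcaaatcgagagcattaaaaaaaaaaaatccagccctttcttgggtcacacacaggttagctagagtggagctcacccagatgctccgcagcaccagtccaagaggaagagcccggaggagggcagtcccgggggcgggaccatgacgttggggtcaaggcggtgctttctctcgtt

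The Bnip3 window held 5 matches, beginning between 117 and 35 bases before the start, and the Ankrd37 window held 4, the nearest beginning 6 bases before it. Pfkfb4 and Egln3 held 1 each, at 117 and 229 bases before the start. The window of Eno2, which was higher and is not shown, held none. The Ankrd37 and Pfkfb4 starts lie inside the annotated span of their genes, downstream of another annotated start. Over all members, 28 of the 31 genes with a listed window held a core in at least 1 window, against 53.6% of the 14452 measured genes with a window. By window, it was 34 of 42 for members and 38.6% of 32851 in all. A core match is a string of letters and not a measured binding site, and Slc2a3, Epas1 and Ndrg1 had no listed window.

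Related genes were also set against each other within each mouse, which cancels anything that shifts both alike. Of 11 pairs chosen, 10 had both genes measured, and the groups did not overlap in 4. The exact permutation test, two-sided with 3 against 3 arrays, cannot go below p = 0.1, which these 4 reached (0.25 after adjustment over the 10 pairs). For single genes the share without overlap was 16.3%, and no share was computed for other gene pairs. Slc2a3, Pfkfb4 and Hif1a were themselves without overlap, so the pairs that hold them partly restate the results of these members. Slc2a3 minus Slc2a1 was −1.09, −1.96 and −0.90 in knockouts, against 0.96, −0.01 and −0.40 in wild types. GLUT3 transcript was thus lower relative to GLUT1 transcript in every knockout, with a difference of −1.50 between the group means.

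Pfkfb3 minus Pfkfb4 was 1.20, 1.22 and 2.31 in knockouts, against 2.46, 2.80 and 2.47 in wild types, with means of 1.58 ± 0.63 and 2.58 ± 0.19 (SD, n = 3 each). Epas1 minus Hif1a was −0.24, 0.34 and 1.11 in knockouts, against 1.25, 1.39 and 1.20 in wild types, a difference of −0.87. In both pairs knockout 3 came close to the wild types. Hk2 minus Hk1 was 0.97, 1.28 and 1.27 in knockouts, against 1.47, 2.80 and 1.59 in wild types, so the insulin-responsive hexokinase was lower relative to the constitutive one in all 3 (difference −0.78). The other 6 pairs overlapped, among them Ldhb minus Ldha (−0.50) and Egln3 minus Egln1 (−0.54). These within-mouse differences show unequal change, not which gene of a pair is more abundant.

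**Figure D3:**
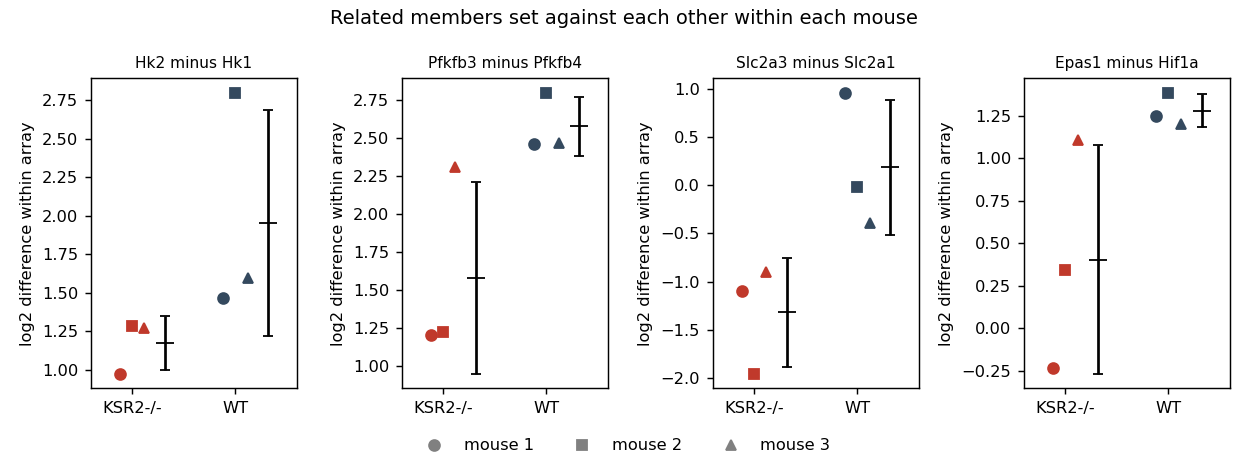
Log2 difference between 2 related genes within each array (vertical axes, not starting at 0) for the 4 pairs without overlap, KSR2-/- left and WT right, with the mean and SD of 3 mice beside each group. All 3 knockouts lie below all wild types in each panel, by the smallest margin for Epas1 minus Hif1a, where knockout 3 stands at 1.11 and the lowest wild type at 1.20.

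The glycolytic and hypoxia members were also set against each other as groups. Of the 20 glycolytic members 12 were higher and 8 lower, and of the 14 hypoxia members 6 were higher and 8 lower. Over all 18193 genes, 8080 were higher and 10113 lower. At the unadjusted p there were 3 of 20 in the first group (2 higher and 1 lower) and 5 of 14 in the second (2 higher and 3 lower), beside the 12.1% of all genes. Per array, the median deviation of the glycolytic members from their wild-type means was 0.05, 0.20 and 0.19 in knockouts, and −0.27, 0.22 and 0.10 in wild types. For the hypoxia members it was −0.15, 0.09 and 0.01 in knockouts, and −0.11, −0.03 and 0.10 in wild types. Both ranges overlap. The number of the 14 hypoxia members over 0.5 log2 from their wild-type mean was 8, 8 and 0 in knockouts, and 2, 1 and 1 in wild types. Among the 20 glycolytic members it was 6, 7 and 3 in knockouts, and 6, 3 and 2 in wild types. Each wild type is part of the mean it is measured from, which by itself draws wild types closer to that mean. No share over all genes was computed per array, so these counts are a description and do not set the members or the genotypes apart.

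Differences were often unequal in the 2 animal number series, over all genes as well as among the members. The sign was the same in both series for 18 of 34 members and for 10561 of 18193 genes. The size was smaller in the 2 lower-numbered mice for 20 of 34 members and for 10389 of 18193 genes. Of the 34 members, 12 had the opposite sign in the 2 lower-numbered mice to their overall difference, among them Slc2a1, Car9, Vhl and P4ha1. None of the 8 members without overlap did, which their lack of overlap fixes in advance, although 7 of them were smaller there. A limma interaction of genotype and animal number series passed for 0 of 34 members and 0 of 18193 genes, and at an unadjusted p under 0.05 it held 2 members, Aldoc and Car9, and 5.97% of all genes.

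Macrophage and cell cycle markers were high in knockouts 1 and 2. The mean of 10 macrophage markers was 10.21, 10.20 and 8.92 in knockouts, against 8.72, 8.86 and 8.71 in wild types. Of the 10, 4 lay above wild type in every knockout, where the share over all genes was 7.72%. Among these, Csf1r barely separated, with knockout 3 at 11.1985 and wild type 3 at 11.1975. Cd163, on the same list, went the other way (−0.58, with overlapping groups). The mean of 7 cell cycle markers was 7.79, 8.19 and 5.90 in knockouts, against 5.48, 5.58 and 5.69 in wild types. Hif1a, Pfkfb4, Ankrd37, Eno2 and Car9 were likewise furthest from wild type in knockouts 1 and 2. Egln3, Bnip3 and Vegfa, which were lower, were furthest from wild type in the same 2 mice. Macrophages express Hif1a and glycolytic genes strongly, and the part of the cell mixture in these differences was not tested. Adipocyte markers (8 measured of 10) had means of 11.04, 11.35 and 12.28 in knockouts, against 11.63, 12.00 and 12.01 in wild types. The mean of 6 brown or beige fat markers was 4.90, 4.86 and 5.76 in knockouts, against 6.09, 6.37 and 6.49 in wild types. Cidea (−3.07), Cox8b (−1.73) and Ppargc1a (−1.64) made up most of this, while Ucp1 (−0.07), Dio2 (−0.07) and Elovl3 (−0.29) overlapped between genotypes. Knockout 3 stood apart in 5 mesothelial markers, with a mean of 8.72 beside 6.74 and 7.01 in the other knockouts, and 6.99 to 7.74 in wild types. The part of these lists in the results was likewise not tested. Slc2a3 was as low in knockout 3 as in knockout 2, at 6.42 in both.

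**Figure D4:**
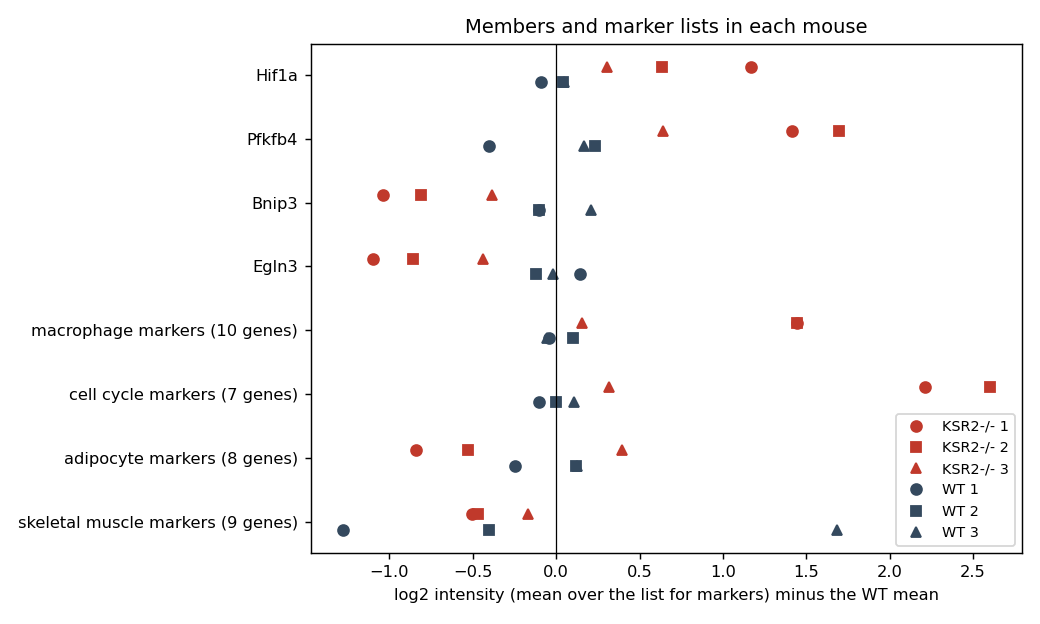
Log2 intensity minus the wild-type mean for 4 members, and the same for the mean over 4 marker lists, with KSR2-/- points above WT points in each row and 1 shape per mouse within a genotype. Macrophage and cell cycle lists stand 1.44 to 2.60 above the wild-type mean in knockouts 1 and 2. In knockout 3 they stand 0.16 and 0.31 above it. In all 4 members, higher (Hif1a, Pfkfb4) or lower (Bnip3, Egln3), knockout 3 is the knockout nearest to wild type.

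Other genes of the pathways were read from wider lists. Of 32 further glycolysis genes 26 were measured, and limma called 0. At the unadjusted p 1 was higher and 6 lower, beside 6.71% higher and 5.38% lower over all genes. The 6 with the smallest p were all lower in knockouts on average. Slc16a7, the high-affinity pyruvate and lactate carrier MCT2, read 6.40, 7.09 and 7.02 in knockouts, against 7.85, 8.71 and 7.65 in wild types (−1.24, SE 0.32, limma adjusted p = 0.248). Mpc1, a subunit of the mitochondrial pyruvate carrier, read 10.77, 10.88 and 11.52 in knockouts, against 11.90, 12.37 and 11.67 in wild types (−0.93, SE 0.27, limma adjusted p = 0.279). In both genes every knockout lay below every wild type.

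Ldhd, the mitochondrial D-lactate dehydrogenase, differed by −0.75 (SE 0.23), and Pgm1, which links glycogen to glucose 6-phosphate, by −0.80 (SE 0.30), both without overlap. Pdk2, an inhibitory kinase of pyruvate dehydrogenase, differed by −0.92 (SE 0.35), also without overlap. The 2 lower-numbered mice differed by −0.11 in Pdk2. In Pgm1 they differed by only −0.00756, with knockout 3 at 10.02 and wild type 3 at 10.03. Slc2a4, the insulin-responsive transporter GLUT4, read 7.21, 7.64 and 9.42 in knockouts, against 9.56, 9.80 and 9.13 in wild types. Knockouts 1 and 2 were low and knockout 3 lay among the wild types, with −2.25 in the 4 higher-numbered mice and 0.30 in the 2 lower-numbered mice. Without knockout 3, limma called Pgm1 (−1.10, adjusted p = 0.0489), Pdk2 (−1.35, adjusted p = 0.0113) and Slc2a4 (−2.07, adjusted p = 0.0131), in the fit that called 4.49% of all genes. With another array left out none of the 3 was called, and the smallest differences were −0.57 for Pgm1 without knockout 1, −0.69 for Pdk2 without knockout 2 and −0.96 for Slc2a4 without knockout 1. The 4 higher-numbered mice alone also leave out knockout 3. There limma called Pdk2 (adjusted p = 0.0439) and Slc2a4 (adjusted p = 0.0216), where 2.68% of all genes were called.

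Of 38 further hypoxia genes 35 were measured, and limma called 0. At the unadjusted p 8 were higher and 4 lower, beside the same shares of all genes, and without overlap 6 lay above and 4 below, beside 7.72% and 8.56% of all genes. The 6 with the smallest p were all higher in knockouts. Car12, a membrane carbonic anhydrase, read 4.87, 5.05 and 5.05 in knockouts, against 3.78, 3.77 and 4.33 in wild types (1.03, SE 0.20, limma adjusted p = 0.197). Averaged over all its probe sets, the Car12 difference was 0.28 (limma adjusted p = 0.546). Plod2 and Plod1, lysyl hydroxylases that prepare collagen for crosslinking, differed by 1.23 (SE 0.34) and 0.91 (SE 0.28). Angptl4, an inhibitor of lipoprotein lipase, read 11.70, 11.83 and 11.75 in knockouts, against 11.26, 11.25 and 11.28 in wild types. Its difference of 0.50 (SE 0.14, limma adjusted p = 0.267) was about equal in both animal number series, at 0.51 and 0.48. Over the alternative fits the Angptl4 difference ran from 0.46 to 1.16, with a lowest limma adjusted p of 0.189. With 1 array left out it ran from 0.46 to 0.53. Hilpda, a hypoxia-inducible lipid droplet protein, differed by 0.78 (SE 0.26).

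Hmox1, the haem oxygenase, which macrophages also express, read 10.10, 9.11 and 7.03 in knockouts, against 6.49, 6.43 and 6.70 in wild types. Its difference of 2.21 (SE 0.70, limma adjusted p = 0.302) was 3.14 in the 4 higher-numbered mice and 0.33 in the 2 lower-numbered mice, and without knockout 3 limma called it (3.06, adjusted p = 0.00720), where 4.49% of all genes were called. With another array left out it was not called, and it was 1.53 without knockout 1. In the 4 higher-numbered mice alone, which also leaves out knockout 3, Hmox1 was called too (limma adjusted p = 0.0234, where 2.68% of all genes were called). Like the macrophage markers, Hmox1 was highest in knockouts 1 and 2. It read 10.10 and 9.11 there, while the marker means were alike, at 10.21 and 10.20. The part of the macrophage markers in the Hmox1 difference was not tested. These 6 genes lay above wild type in every knockout. The 4 of the wider list that lay below it in every knockout were Cited2 (−0.59), Fam162a (−0.53), Edn1 (−0.47) and Insig2 (−0.33), which are named after their values were seen.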

How the data were processed

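RNA of white adipose tissue from 3 KSR2-/- and 3 WT mice was hybridised to 1 array each, and the arrays were grouped by the genotype in the labels and numbered in accession order. The labels hold no shared replicate numbers. The intensity values the authors deposited were made by RMA, per the submitters' processing notes (version not given in the sources used here), on a linear scale. The upper quartiles of the arrays ran from 95.4 to 124, a wider spread than RMA's quantile step usually leaves, so the exact steps are not settled here. The log2 of each value was taken with no pseudocount. Of 45101 probe sets, 34945 carried a single gene. Names were updated through RefSeq GRCm38.p6 gene identifiers, which matched 34741 of them. Each gene was represented by its brightest single-gene probe set, with no filter, giving 18193 genes. The two-sided genotype test was that of limma 3.58.1 (R 4.3.3), its p-values were adjusted over all genes by Benjamini-Hochberg, and 95% intervals are those of the moderated fit. Arrays numbered 3 per group, which limits precision; the median SE of a difference was 0.22 log2. On simulated data for this comparison of 18193 genes, 23% of 2-fold and 67% of 4-fold changes were recovered.

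The members, the wider lists and the pairs were chosen with earlier results of these data known, so they are described by counts beside those of all genes, and no gene set test was run, although the series' design text names gene set enrichment analysis. All 37 members are accounted for. Values per mouse are given for each member at an unadjusted p under 0.05 or without overlap, for 7 members fixed by name, and for Aldoa, Aldoc, Ldhb, Epas1 and Car9, which were chosen after their values were seen. The 6 genes with the smallest p were taken from each wider list. Alternatives covered probe sets, a filter, normalization, the variance model, the animal number series, RNA integrity and each array left out. RefSeq promoter windows were searched on both strands.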

Additional observations from a re-analysis of the deposited data

How the results depend on the processing

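Of 14 alternative fits, 13 called 0 members and the fit without knockout 3 called 2, so the count over fits with 1 array left out ran from 0 to 2. The 8 members at an unadjusted p under 0.05 kept their direction in each alternative that tested them and in the 2 lower-numbered mice alone. With arrays left out, and in either animal number series alone, their lack of overlap fixes this in advance. With 1 array left out 6 to 11 members had an unadjusted p under 0.05, beside 6.43% to 16.2% of all genes. There were 5 among the 28 members that passed a filter at the median gene mean (13.9% of the genes tested), which removed dim genes such as Eno2 and Ankrd37. With 1 array left out the median difference of the glycolytic members ran from −0.05, without wild type 1, to 0.22, and that of the hypoxia members from −0.11 to 0.03. It was −0.16 for the hypoxia members in the 2 lower-numbered mice alone. The cause was not tested.

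Small differences changed sign. When all probe sets of a gene were averaged, Pfkl differed by 0.11, Pfkfb3 by −0.12 and Arnt by 0.0465. With RNA integrity, read from the Gapdh control probe sets, as a covariate, Pfkl differed by 0.0133, Aldoa by 0.0120 and Aldoc by 0.21. With quantile normalization repeated Aldoa differed by 0.00852. In the 4 higher-numbered mice alone Pfkl differed by 0.0153, Aldoc by 0.69, Arnt by 0.0948 and Ddit4 by −0.0109. With 1 array left out, ranges that crossed 0 were −0.0682 to 0.0297 for Pfkl, −0.17 to 0.51 for Pfkp, −0.00693 to 0.48 for Pfkfb3, −0.15 to 0.16 for Aldoa, −0.65 to 0.54 for Aldoc, −0.0665 to 0.20 for Pgk1, −0.23 to 0.28 for Slc16a1, −0.14 to 0.0180 for Arnt and −0.10 to 0.10 for Adm. Over the alternatives that tested each gene, the limma adjusted p of Pfkfb4 ran from 0.0280 to 0.721, that of Egln3 from 0.0429 to 0.725 and that of Slc2a3 from 0.0537 to 0.704. No paired analysis was possible because the labels give no shared replicate numbers; a block on the animal numbers called 0 members. Dim signals limit what can be read for Slc16a3, Ankrd37 and Eno2.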

Other observations

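A few further glycolysis genes stood out and were chosen after their values were seen. Hk3, a hexokinase of myeloid cells, read 8.28, 9.43 and 6.83 in knockouts, against 6.51, 6.73 and 6.92 in wild types, and knockout 3 lay within the wild-type range. Its difference of 1.46 (SE 0.59, limma adjusted p = 0.397) was 2.23 in the 4 higher-numbered mice and −0.10 in the 2 lower-numbered mice. Without knockout 3 it was 2.13 (limma adjusted p = 0.0293, where 4.49% of all genes were called), and without knockout 2 it was 0.83 (limma adjusted p = 0.813). The macrophage markers were high in the same mice, at a mean of 10.21 and 10.20 in knockouts 1 and 2 against 8.71 to 8.92 on the other arrays, and their part in it was not tested.

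The muscle forms of enolase and phosphoglycerate mutase were highest in wild type 3, the mouse with the highest skeletal muscle markers. Eno3 read 5.63, 5.95 and 6.07 in knockouts, against 5.93, 6.18 and 7.06 in wild types. Pgam2 read 4.39, 4.12 and 4.51 in knockouts, against 4.51, 4.57 and 5.56 in wild types.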
